A study of Microtus ochrogaster with 40 samples.

Results

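Astrocytes of the nucleus accumbens of the prairie vole (Microtus ochrogaster) were taken from droplet libraries of nuclear RNA. The nuclei were chosen by their own RNA. One was counted as an astrocyte when the summed UMIs (unique molecular identifiers, each counting 1 captured RNA molecule) of Slc7a10, Gja1, Ntsr2, Slc1a3 and Fgfr3 reached 3 with at least 2 of these genes detected, and when it held no UMI of Mog, Mag, Pdgfra, Slc17a7, DRD1A or DRD2. Only barcodes of 500 UMIs or more were considered, with no more than 5% of the UMIs from 13 mitochondrial genes. It gave 19025 nuclei, which were 10.2% of the 185995 kept barcodes of 40 libraries and held 4.82% of their UMIs.

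Before collection the voles spent 16 days paired either with a mate, of the opposite sex, or with a peer, of their own sex. The study held 11 female mate and 8 female peer animals, and 11 male mate and 10 male peer animals. Each library came from the dissected accumbens of 1 animal's frozen brain. No transgene, drug or surgery is named for any group, and age and the identity of the partners are not given in the sources used here. Animals that shared a cage may not be independent of each other. The comparisons ask whether astrocyte abundance and astrocyte RNA differ with the type of partner and with sex.

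Astrocytes are glia that contact synapses, blood vessels and each other. They clear glutamate and GABA from the extracellular space, take up potassium, move water through Aqp4 channels, supply neurons with lactate and cholesterol, and are joined into networks by gap junctions of Gja1 and Gjb6. Slc1a2 and Slc1a3 encode the main glial glutamate transporters, Slc7a10 a carrier of small neutral amino acids including D-serine, Ntsr2 a neurotensin receptor and Fgfr3 a receptor for fibroblast growth factors. Agt encodes angiotensinogen, the precursor of the angiotensin peptides, and is an astrocyte gene of the deep forebrain. Gfap is the intermediate filament that rises in reactive astrocytes and is low in most striatal astrocytes.

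One library stood apart. Male mate 2 was the only library with barcodes below 500 UMIs, 6375 of them, and it gave 70 astrocytes, which were 1.15% of its kept nuclei. It had the lowest level of most astrocyte markers and the highest share of kept nuclei with a Slc17a7 UMI, 37.3%. The main comparisons that it moves are given with and without it. In the other 39 libraries the number of astrocytes reached up to 818, and the median over all 40 was 465. Of 18770 barcode sequences among the astrocytes, 254 occurred in at least 2 libraries. Among all kept barcodes, the pair of libraries with the most in common shared 1.53% of those of the smaller library.

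The nuclei were shallow. An astrocyte held a median of 770 UMIs (quartiles 640 and 944) from a median of 627 genes, against 1704 UMIs in the other kept nuclei. By animal the median was lowest in male peer 2 (588) and highest in male mate 3 (1102). Summed over an animal, the astrocytes held between 56249 and 672818 UMIs, with a median of 389236. Levels below are UMIs per 1000000 UMIs of these sums (CPM). A level in such a sum is relative to the other RNA of the same nuclei. In a share of nuclei, fewer astrocytes and less RNA per astrocyte cannot be told apart, since a nucleus with less RNA can miss the limits of the selection.

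The genes of the selection are described without a test. Slc1a3 was detected in 98.9% of the astrocytes, Gja1 in 93.7%, Slc7a10 in 76.0%, Ntsr2 in 69.2% and Fgfr3 in 54.0%. The median sum of the 5 genes was 14 UMIs, 94.8% of the nuclei reached at least 5, and 31.4% had all 5 genes. Most of the chosen nuclei therefore lay well above the limit of 3. At the limit itself, the 503 nuclei with a sum of exactly 3 had 671 CPM of Agt and 2805 CPM of Slc1a2, whereas the 596 nuclei just outside, with a sum of 2 and none of the excluded genes, had 325 and 1312 CPM. Over all astrocytes pooled these levels were 2775 CPM of Agt and 12187 CPM of Slc1a2. In the 44655 nuclei with none of the 5 genes and none of the excluded genes they were 12.2 and 218 CPM. The nuclei near the limit thus carried intermediate levels on both sides of it.

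The excluded genes took out 4596 of the 23621 nuclei that met the first criterion (19.5%). Slc17a7, the vesicular glutamate transporter of cortical and thalamic neurons, was present in 9.56% of the 23621, DRD1A (the D1 dopamine receptor) in 6.03% and DRD2 (the D2 receptor) in 2.66%. The oligodendrocyte genes Mag and Mog were present in 2.54% and 1.92%, and Pdgfra, of oligodendrocyte precursors, in 1.80%. The nuclei taken out had a median of 1491 UMIs. Of them 29.8% were called doublets (2 nuclei in 1 droplet), against 3.51% of the astrocytes that stayed and 4.30% of all kept nuclei. In each library the number of calls was set in advance from its barcode count. These percentages can be compared, but none measures a doublet rate.

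The label was checked on 21 astrocyte markers that the selection had not used. Beside them, 4 other populations were gated from nuclei with at most 1 UMI of the 5 genes: 8302 oligodendrocytes, 4515 oligodendrocyte precursors, 46154 spiny neurons (the main neurons of the accumbens) and 4776 microglia. Each of the 21 markers was higher in astrocytes than in oligodendrocytes and in precursors in 39 of 39 animals, and than in microglia in 38 of 38. Each was also higher than in spiny neurons in 40 of 40 animals, except Aldh1l1, which was at 0 in the astrocytes of male mate 2 and higher in 39 of 40. By these markers the label held in the animals compared. Male mate 2 was weaker in this check: its markers were low, its neuron markers were the highest of all animals, and 62.9% of its astrocytes lay in the clusters of mixed content described below.

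**Figure D1:**
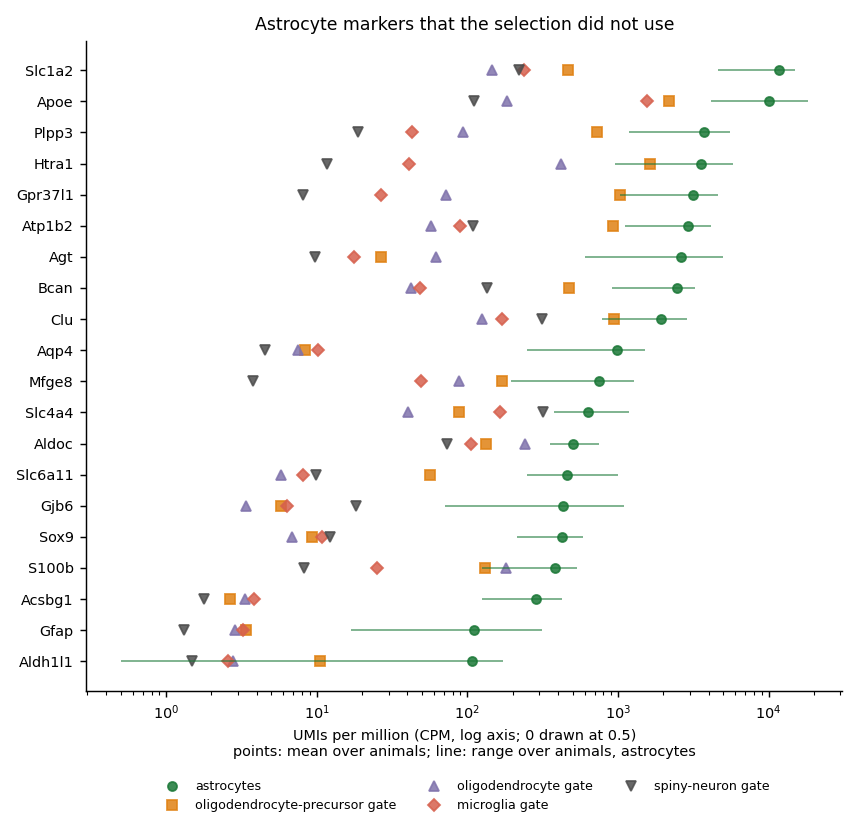
Levels of 20 of the 21 astrocyte markers that the selection did not use, in CPM on a log axis. Points are means over animals for the astrocytes and 4 gated populations, lines run from the lowest to the highest animal for the astrocytes, and a level of 0 is drawn at 0.5; the astrocyte mean lies above the other 4 for every marker drawn.

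Among the markers of highest level was Slc1a2, at 11796 ± 2017 CPM (SD, n = 40 animals; lowest 4587 in male mate 2, next lowest 8418, median 12153, highest 15086). It averaged 145 CPM in oligodendrocytes, 468 in precursors, 219 in spiny neurons and 236 in microglia. Apoe, the lipoprotein of brain cholesterol transport, was at 10116 ± 3271 CPM (lowest 4125, median 10031, highest 18284), and it was also present in precursors (2191 CPM) and microglia (1562 CPM). Its spread between animals was wide, with the highest animal more than 4 times the lowest. Atp1b2, a subunit of the sodium pump, was at 2914 ± 599 CPM, with 932 CPM in precursors and less in the other gates. Plpp3, a lipid phosphatase, was at 3745 ± 846 CPM, the secreted protease gene Htra1 at 3576 ± 964 and the receptor gene Gpr37l1 at 3150 ± 735. Precursors carried between 731 and 1622 CPM of each of these 3 genes, and spiny neurons at most 18.8.

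Agt set astrocytes apart from all 4 gates, precursors included. Its level was 2632 ± 952 CPM (lowest 604 in male mate 2, next lowest 1199, median 2568, highest 4965 in male peer 7), against 62.3 CPM in oligodendrocytes, 26.8 in precursors, 9.69 in spiny neurons and 17.7 in microglia. Aqp4, the water channel of astrocyte endfeet, was at 986 ± 261 CPM and at 4.53 to 10.2 CPM elsewhere. Slc7a11, the cystine and glutamate exchanger, was at 1454 ± 337 CPM against at most 12.1 in the other gates. The matrix gene Bcan was at 2455 ± 431 CPM and the chaperone gene Clu at 1932 ± 502, both with lower levels in each gate.

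Gfap was sparse and varied widely between animals. It had 110 ± 65.8 CPM (lowest 16.9 in female mate 10, median 101, highest 312 in female peer 3), against 1.31 to 3.41 CPM in the other gates. By group the lowest, median and highest were 16.9, 106 and 202 CPM in female mates, 37.2, 76.9 and 312 in female peers, 23.4, 124 and 202 in male mates, and 29.3, 99.1 and 191 in male peers. The groups overlapped over most of their range. Gjb6, a connexin of astrocyte gap junctions, was at 429 ± 177 CPM, and Sox9, a transcription factor of the astrocyte lineage, at 426 ± 70.2.

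Gene groups of astrocyte function were described by how many of their members reached a mean of 20 CPM in astrocytes and, of those, how many had a higher mean in astrocytes than in all 4 gates. In glutamate uptake and metabolism 9 of 9 genes reached that level and 5 were highest in astrocytes. The count was 7 of 9 and 3 for GABA and amine handling, 13 of 14 and 9 for potassium, water and ion transport, and 10 of 10 and 6 for connexins and cell contacts. In glucose, glycogen and lactate metabolism 13 of 13 genes reached it and 11 were highest, with Pygb, the brain glycogen phosphorylase, at 540 CPM against 43.0 to 85.3. In lipid and cholesterol handling the count was 19 of 21 and 15, with Acsl3, an acyl-CoA synthetase, at 1554 CPM against 215 to 1039. Of 26 astrocyte transcription factors 24 reached it and 19 were highest, with Id4 at 668 CPM against 11.7 to 32.7 and Gli3, of the hedgehog pathway, at 340 CPM against 2.12 to 10.9. The 20 CPM limit was set on the astrocyte level, and the share over all genes was not taken. The counts are a description and do not rank the groups.

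Several genes known from astrocytes were as high or higher in another gate. Kcnj10, the inward-rectifier potassium channel Kir4.1, was at 494 ± 118 CPM in astrocytes and 567 in oligodendrocytes, and was higher in astrocytes in 11 of 39 animals. Sparcl1, the synapse organiser hevin, was at 4123 ± 1207 CPM against 4519 in precursors, and higher in astrocytes in 16 of 39. Mertk, a phagocytosis receptor, was at 392 CPM against 453 in microglia (higher in 19 of 38), and Gabbr1, a GABA-B receptor subunit, at 430 CPM against 498 in spiny neurons (higher in 6 of 40). In contrast Adra1a, an adrenergic receptor, was at 403 CPM against 7.83 to 15.9 elsewhere. Slco1c1, a transporter of thyroxine, was at 560 CPM against 1.82 to 14.3.

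Receptors for hormones and social peptides were scarce in these nuclei. Of 12 steroid and social peptide receptors 3 reached 20 CPM, and none of the 3 was highest in astrocytes. Insr, the insulin receptor, was at 223 CPM (280 in oligodendrocytes), Igf1r at 60.8 (93.0 in microglia) and Nr3c2, the mineralocorticoid receptor, at 28.0 (33.2 in oligodendrocytes). The oxytocin receptor OXTR averaged 0.57 CPM, from 10 UMIs in all, against 7.38 CPM in spiny neurons. The oestrogen receptor Esr1 had 6 UMIs in all. At this depth a low level of such receptors could not be resolved per animal. Of 15 reactive astrocyte genes 4 reached 20 CPM, and 3 of these were highest in astrocytes, Vim among them at 215 ± 70.9 CPM.

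RNA of other cell types was present in the astrocyte sums. The 8 neuron markers summed to between 722 and 2647 CPM in 39 animals and to 3058 in male mate 2 (median over the 40, 1203), against a median of 5077 in the other kept nuclei. The 11 spiny neuron markers had a median of 1395 CPM and a highest value of 5031 in male mate 2, against 7385. The 8 oligodendrocyte markers had a median of 397 CPM (217 to 815), and the 7 precursor markers between 20.8 and 178 CPM. The 8 microglia markers had 584 CPM (160 to 947), and the 4 endothelial markers had 30.7 CPM (0 to 427). The 7 markers of mural and fibroblast-like cells had 79.6 CPM (36.2 to 154), 7 of glutamate neurons 124 CPM (87.1 to 216), and 8 of ependymal cells 363 CPM (179 to 1369), led by Hydin. No marker of these lists was at 0 over all astrocytes. Their part in the results below was not tested, except where values without the nuclei of mixed content are given.

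Clustering split the astrocytes into 8 clusters, which are described by their leading genes (CPM in the cluster against the other astrocytes), with no test, since the clusters were made from the same genes. Cluster 1 held 8810 nuclei (46.3%), at a median of 813 UMIs. It was led by Thrsp (114 against 32.4 CPM), a regulator of lipid synthesis, the calcium channel subunit Cacnb2 (191 against 68.4), the collagen Col5a3 (352 against 129), tissue factor F3 (325 against 125), the adenosine receptor Adora2b (145 against 55.5) and Tlr4 (352 against 142). Cluster 2 held 5772 nuclei (30.3%), at 646 UMIs. Its leading genes were the BMP regulator Bmper (141 against 25.8 CPM), the Wnt receptor Fzd5 (103 against 20.5), the Wnt inhibitor Sfrp2 (141 against 31.7) and the proteoglycan Bgn (69.3 against 13.1). Within animals, Gfap averaged 192 ± 164 CPM in cluster 2 and 32.8 ± 25.1 in cluster 1 (SD, n = 39). Both are shallow clusters and they differed in depth.

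Cluster 3 held 3015 nuclei (15.8%) and was led by genes of neuronal cytoskeleton and synapse: Camk2a (589 against 218), Map1a (890 against 334), Ddn (159 against 52.4) and Sptb (132 against 32.9). Its neuron markers summed to 1707 CPM and its spiny neuron markers to 1819, against 551 and 744 in cluster 1. Whether this is RNA of neighbouring neurons or of the astrocytes was not tested.

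Cluster 5 was small, with 336 nuclei (1.77%). Its astrocyte markers outside the selection summed to 74715 CPM, against 55486 to 65243 in clusters 1 to 3. It was led by Lcat (591 against 15.8 CPM), an enzyme that esterifies cholesterol on lipoproteins, the secreted factor Serpinf1 (108 against 3.34), Gfap (1118 against 86.2), Id3 (690 against 93.5) and the matrix protein Sparc (465 against 97.7). Its Agt level was 5409 CPM and its Aqp4 level 2819, while Slc1a2 was at 11133 CPM, below the 12207 to 14905 of clusters 1 to 3. Male peer 5 gave 24.4% of the cluster, and the cluster held 17.6% of that animal's astrocytes, against 0.699 to 2.44% in the other male peers. The cluster was not alike in all animals. Of 8 animals with at least 10 of its nuclei, male peer 5 had the lowest Lcat (27.9 CPM, mean 642) and Id3 (55.8, mean 621) and the highest Sparc (1047). A Gfap UMI was found in 8 of the 467 astrocytes of male peer 5 (1.71%). That library had the lowest share of Slc17a7-positive nuclei, 0.667%.

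Clusters 4, 6, 7 and 8 each had more than 10% of nuclei called doublets and carried genes of other cells. Cluster 4 (578 nuclei, 3.04%) had a median of 2049 UMIs, 56.7% doublet calls and the interneuron peptides Sst (931 against 60.2 CPM) and Vip (249 against 5.81). Cluster 6 (307 nuclei) was led by the cilium gene Odf3b (544 against 0.74) and the proliferation gene Mki67 (489 against 2.29). Cluster 7 (114 nuclei) was led by the microglial receptor Cx3cr1 (2308 against 5.35), and cluster 8 (93 nuclei) by the endothelial genes Flt1 (2988 against 3.38) and Cldn5 (996 against 1.21). Together these mixed clusters held 1092 nuclei (5.74%). They made up 62.9% of the astrocytes of male mate 2 and between 2.01 and 13.8% in the other animals. Without them 17933 astrocytes were left, the median sum of neuron markers was 779 CPM, that of endothelial markers 2.44 CPM, and results are given below both ways where this changed a call.

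**Figure D2:**
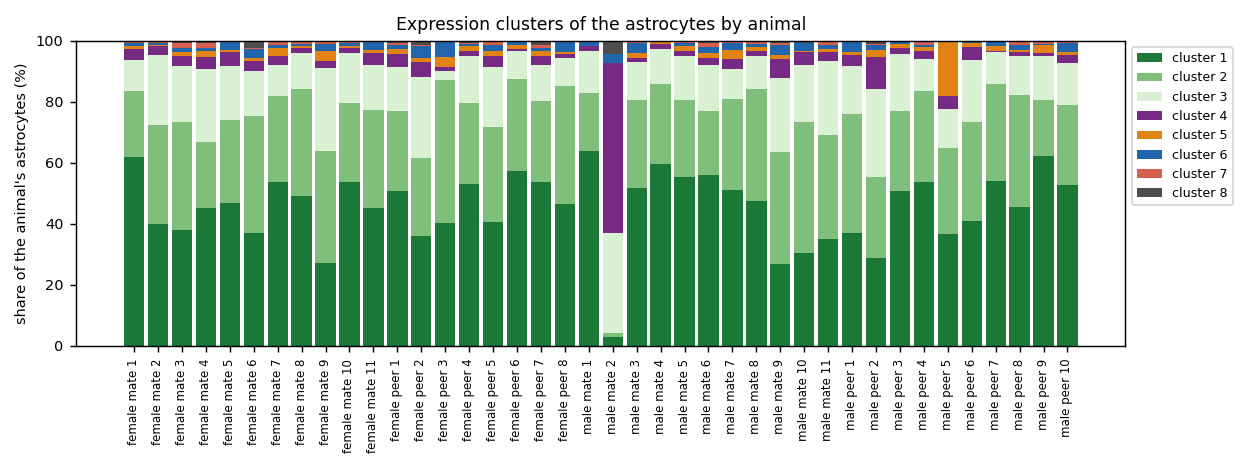
Share of each animal's astrocytes in 8 expression clusters, in percent, with 1 stacked bar per animal. Clusters 1, 2 and 3 make up most of every bar except that of male mate 2, where cluster 4 holds 55.7%, and male peer 5 stands out by 17.6% in cluster 5.

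The 3 largest clusters held similar shares in the 4 groups. Cluster 1 held 45.3 ± 9.55% of the astrocytes of female mates (SD, n = 11), 47.3 ± 7.59% of female peers (n = 8), 43.7 ± 18.1% of male mates (n = 11) and 46.2 ± 10.3% of male peers (n = 10). Cluster 2 held 30.4, 31.6, 27.5 and 29.6%, in the same order, and cluster 3 17.1, 13.5, 17.1 and 15.8%. Without male mate 2 the male mates had 47.7 ± 12.7, 30.1 and 15.5% in the 3 clusters (n = 10). For these clusters the differences between groups were smaller than the SD within any group. Of the smaller ones, cluster 4 held 7.45 ± 16.1% in male mates (2.63% without male mate 2) and 2.68 to 3.29% in the other groups. Cluster 5 held 3.03 ± 5.13% in male peers, with a median of 1.31% and 17.6% in male peer 5, and 1.16 to 1.58% in the other groups.

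The share of astrocytes among kept nuclei did not pass the test in any comparison. It had a lowest value of 8.69%, a median of 10.2% and a highest of 13.8% in female mates, 6.80, 12.2 and 14.4% in female peers, 1.15, 10.8 and 13.3% in male mates, and 7.48, 10.1 and 12.5% in male peers. The 4 groups overlapped over most of their range. Mates averaged 10.3 ± 2.52% (n = 22) and peers 10.6 ± 2.16% (n = 18), a difference of −0.33 percentage points with sexes weighted equally (two-sided permutation test, p = 0.670, adjusted p = 0.735 over 3 tests). Females exceeded males by 0.83 points (permutation p = 0.275, adjusted p = 0.735), and the pairing difference differed between the sexes by −0.53 points (permutation p = 0.735). Without male mate 2 the pairing difference was 0.12 points (permutation p = 0.847), so its sign rested on that library. With every nucleus thinned to 800 UMIs and shallower nuclei left out, the differences were −1.65 points for pairing (permutation p = 0.135), 1.88 for sex (permutation p = 0.0954) and −3.63 for the interaction (permutation p = 0.0854), each with an adjusted p of 0.135. The median depth of the astrocytes, which bears on which nuclei pass the limits, was 776 ± 101 UMIs in female mates, 892 ± 102 in female peers, 778 ± 128 in male mates and 754 ± 107 in male peers.

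**Figure D3:**
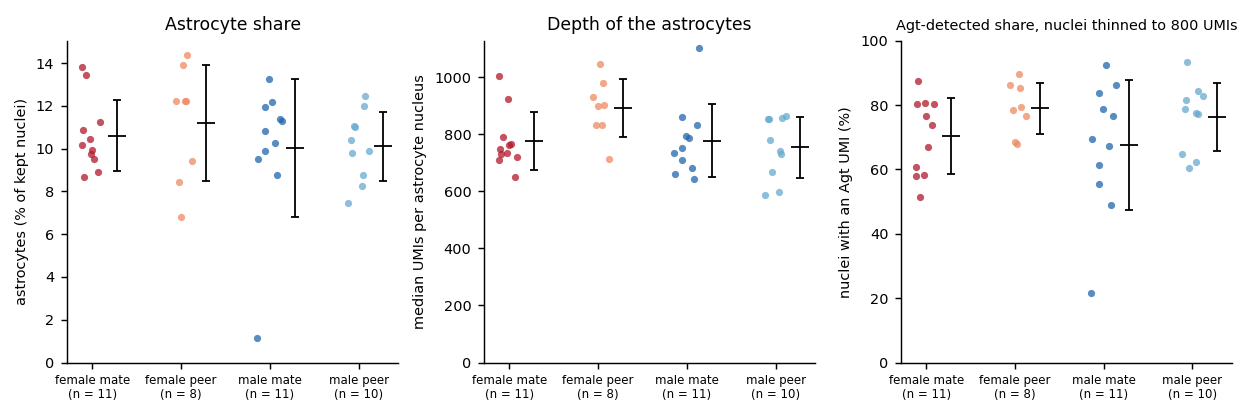
Share of astrocytes among kept nuclei (percent), median UMIs per astrocyte nucleus, and share of astrocytes with an Agt UMI after thinning to 800 UMIs (percent), by group. Points are animals and bars show mean ± SD; in the first panel 1 male mate lies at 1.15% and all others lie above 6%.

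Astrocyte sums of 40 animals were then compared gene by gene, with 8505 genes tested by edgeR's quasi-likelihood test and Benjamini-Hochberg adjustment. Between mates and peers no gene passed (0 called, 0% of genes tested), DESeq2 likewise called 0, and 429 genes (5.04%) had an unadjusted p under 0.05. In simulated data of this design with 200 changed genes, 70% of genes changed 1.5-fold and 97% of genes changed 2-fold were recovered. The simulated animals were independent of each other, and recovery depends on how many genes change. The comparisons within each sex and between the sexes were not simulated.

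The gene nearest to the threshold was Rcor2, a corepressor of neuronal genes. Its lowest, median and highest levels were 28.2, 33.5 and 66.5 CPM in female mates, 7.56, 21.9 and 46.0 in female peers, 20.8, 33.3 and 71.1 in male mates, and 10.4, 16.1 and 26.9 in male peers. All 22 mates lay above the peer mean, while the ranges of mates and peers overlapped. The difference was 0.75 ± 0.16 on the log2 scale (SE; edgeR adjusted p = 0.156; mates 36.9 ± 13.4, peers 19.6 ± 8.82 CPM), and over the alternatives the adjusted p ran from 0.011 to 0.899. It passed when female peer 4 was left out (log2 0.85), and in no other alternative. The next were Arhgap26 (0.84 ± 0.21, edgeR adjusted p = 0.678), Banp (0.69 ± 0.17, adjusted p = 0.678), Zdhhc17 (−0.28 ± 0.075, adjusted p = 0.872) and Traf3ip1 (0.43 ± 0.12, adjusted p = 0.872).

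Of the listed groups, none had a member that passed between mates and peers. Among 9 tested clock genes 7 had a positive difference and 2 had an unadjusted p under 0.05, beside 4263 positive of all 8505 genes and 5.04% with such a p. The 2 were Per2, at 126 ± 44.9 CPM in mates and 96.4 ± 27.4 in peers (log2 0.40 ± 0.14, edgeR adjusted p = 0.929), and Per1 (0.34 ± 0.13, adjusted p = 0.955). In 19 of 22 mates Per2 lay above the peer mean. The time of day of collection is not given in the sources used here.

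The 21 astrocyte markers outside the selection had a median difference of −0.10 on the log2 scale, against 0.00 over all genes tested, and 2 of the 21 were positive. The median was −0.11 without the mixed clusters and −0.07 without male mate 2, where 4 of the 21 were positive. With all animals the unadjusted p was under 0.05 in 3 of the 21, beside 5.04% of all genes, and without male mate 2 in 2, since that of Agt was then 0.0562. Agt had a lowest, median and highest level of 1199, 2512 and 3065 CPM in female mates, 1740, 2558 and 4353 in female peers, 604, 2446 and 4933 in male mates, and 1680, 2798 and 4965 in male peers. The groups overlapped, and 5 of 22 mates lay above the peer mean. Its difference was −0.34 ± 0.16 (edgeR adjusted p = 0.955), and −0.29 ± 0.15 without male mate 2. Gjb6 was at 382 ± 153 CPM in mates and 487 ± 192 in peers (−0.34 ± 0.16; −0.31 ± 0.15 without male mate 2), and Atp1b2 at 2719 ± 590 and 3152 ± 533 (−0.24 ± 0.11), each with an edgeR adjusted p of 0.955. Gfap (−0.03 ± 0.27, edgeR adjusted p = 1.00) and Slc1a2 (−0.02 ± 0.11, adjusted p = 1.00) had differences near 0, the first with a wide error, and that of Slc1a2 was 0.03 without male mate 2.

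With an unadjusted p under 0.05 there was 0 of 9 genes of glutamate uptake and metabolism (median −0.03), 1 of 7 of GABA and amine handling, 1 of 13 of ion transport (Atp1b2), 1 of 10 connexins and contacts (Gjb6) and 1 of 20 of lipid handling (Srebf1, −0.19). The count was 0 of 13 for glucose and glycogen, 0 of 4 reactive genes, 1 of 22 receptors (Gabbr2, −0.36), 1 of 16 synapse organisers (Sparc, −0.51), 0 of 24 transcription factors and 0 of 3 hormone receptors. The medians of these groups lay between −0.09 and 0.00. Of 7 immediate early genes 1 had it (Nr4a1, −0.48), of 8 glucocorticoid-responsive genes 1 (Per1), and of 8 thyroid and retinoid genes, 2 dopamine and adenosine receptors and 6 progenitor genes 0 each. The background was 5.04%. Without the mixed clusters the count was 3 of 10 for connexins and contacts, 2 of 13 for ion transport and 2 of 20 for lipid handling. It was 2 of 15 for synapse organisers, 1 of 4 reactive genes, 2 of 10 spiny neuron markers and 0 of 6 immediate early genes. Again no gene passed after adjustment, and the share over all genes of that fit is not given here. The count without male mate 2 was 3 of 22 for receptors (Gabbr2, Adra1a at 0.22 and Itpr2 at 0.17). It was 0 of 7 for GABA and amine handling and 0 of 20 for lipid handling, beside 438 of all 8466 genes tested. Markers of spiny neurons were positive in 11 of 11 (median 0.12, none with an unadjusted p under 0.05), and in 9 of 11 without male mate 2, which had their highest sum. Markers of neurons were positive in 1 of 7 (median −0.09, and 0.03 without the mixed clusters). Ependymal markers had a median of −0.44 with Foxj1 at −0.78. Without male mate 2, 4 of them were tested, with Hydin at 0.04, Spef2 at −0.11 and Dynlrb2 at −0.85 beside Foxj1. Without the mixed clusters 1 ependymal marker was tested, at 0.07. The part of these markers in the result was not tested.

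The pairing difference was also taken within each sex and between the sexes. Within females edgeR called 0 genes (0%, and 478 or 5.62% at an unadjusted p under 0.05), within males 0 (0%, and 234 or 2.75%), and for the difference between the sexes 0 (0%, and 266 or 3.13%). DESeq2 called 0 genes in each. In females Pcdh9, a protocadherin of cell adhesion, was at 133, 156 and 191 CPM (lowest, median, highest) in mates. In peers it was at 87.4, 97.0 and 130 CPM, without overlap in these animals. The share of all genes without overlap was not counted, and Pcdh9 was named for its low p among 8505 genes. Its difference of 0.60 ± 0.14 had an edgeR adjusted p of 0.519, and the difference between the sexes was 0.74 ± 0.20 (adjusted p = 1.00). In males Umps, of pyrimidine synthesis, was at 17.6, 32.1 and 53.3 CPM in mates and 9.50, 15.0 and 23.7 in peers (0.89 ± 0.21, edgeR adjusted p = 0.932), with overlap. Hes5, a Notch target kept by radial glia and astrocytes, had a difference of 0.48 in females (unadjusted p = 0.00892, edgeR adjusted p = 0.720) and −0.03 in males (unadjusted p = 0.844). The difference between the sexes was 0.51 (unadjusted p = 0.038, edgeR adjusted p = 1.00). Sox6, a transcription factor of glial precursors and astrocytes, went the other way, with −0.44 in females (unadjusted p = 0.0433), 0.29 in males (unadjusted p = 0.157) and −0.74 between the sexes (unadjusted p = 0.0162, edgeR adjusted p = 1.00). These were the 2 of 24 tested transcription factors with an unadjusted p under 0.05 for that difference.

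Between females and males 2 genes passed (0.0235% of genes tested), Kdm5c and Kdm6a, both X-linked histone demethylases with related copies on the Y chromosome. Kdm5c was at 255, 289 and 351 CPM (lowest, median, highest) in female mates, 193, 285 and 355 in female peers, 107, 199 and 243 in male mates, and 134, 165 and 202 in male peers. Of 19 females 18 lay above the highest male. The mean was 291 ± 40.1 CPM in females and 175 ± 31.5 in males (log2 0.72 ± 0.074, edgeR adjusted p = 7.07e-09). Kdm6a was at 330 ± 44.9 CPM in females (244 to 412) and 209 ± 30.7 in males (128 to 285), with 16 females above the highest male (log2 0.66 ± 0.071, edgeR adjusted p = 1.73e-08). Reads of a Y copy could be counted on the X gene in males, which was not tested.

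The other 5 X-linked genes of this list did not pass. Ddx3x, an RNA helicase, was at 161 ± 36.6 CPM in females and 132 ± 55.2 in males (log2 0.25 ± 0.13, unadjusted p = 0.0483, edgeR adjusted p = 1.00). Eif2s3x had −0.15, and the means of females and males were 78.8 and 71.6 CPM for Uba1, 116 and 114 for Usp9x, and 56.4 and 59.8 for Zfx. Over all genes tested 406 (4.77%) had an unadjusted p under 0.05. Among the 21 astrocyte markers outside the selection 0 did, with a median of 0.05. Named by the lowest p of their list were the cadherin Cdh20 (−0.39, unadjusted p = 0.00344, edgeR adjusted p = 0.936), the pyruvate carboxylase gene Pcx (0.25, unadjusted p = 0.0112), the sterol enzyme gene Sqle (−0.29, unadjusted p = 0.0132) and Fos (0.69, unadjusted p = 0.0404). Of the microglia markers C1qb (0.72), and of the endothelial markers Abcb1a (1.19), also had a low unadjusted p, 0.0133 and 0.0201. The other members of these lists are not given here. Without the mixed clusters 1 microglia marker was tested (log2 0.18), and its unadjusted p was not under 0.05.

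**Figure D4:**
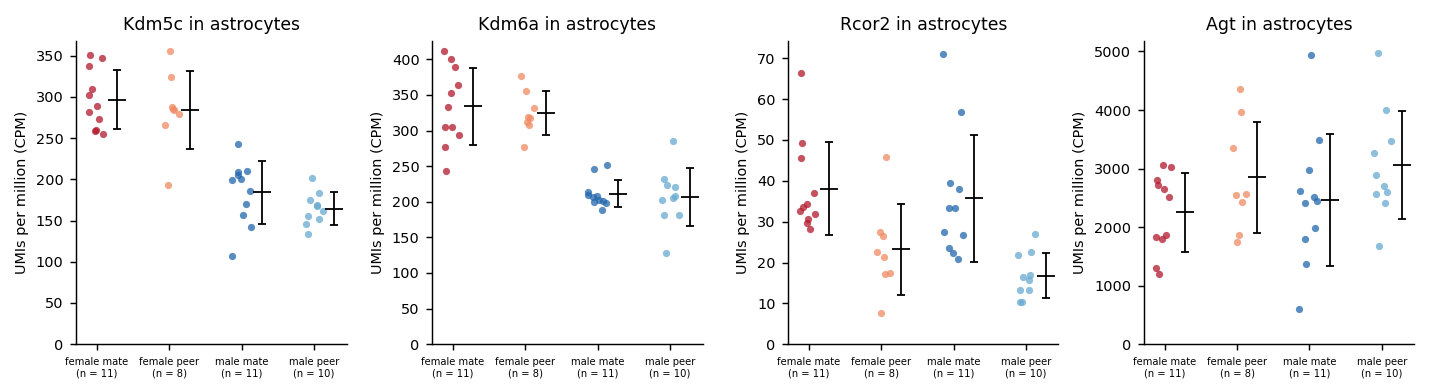
Levels of Kdm5c, Kdm6a, Rcor2 and Agt in astrocyte sums, in CPM, by group; points are animals and bars show mean ± SD. The 2 X-linked genes separate most females from males, whereas Rcor2 and Agt overlap between mates and peers.

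Libraries differed in the share of nuclei that carried Slc17a7, with a mean of 21.4 ± 7.83% (n = 40), a lowest value of 0.667% (male peer 5) and a highest of 37.3% (male mate 2). Slc17a7 marks glutamate neurons, which are found mainly outside the accumbens. With this share added to the group means, edgeR called 2 genes in the astrocyte sums (0.0235% of genes tested, with 557 or 6.55% below 0.05 before adjustment), and DESeq2 called 11. Without male mate 2, which had the highest share, edgeR called 7, of which 4 were higher and 3 lower. The 2 genes called over all animals are known from neurons. The peptide gene Cck ran from 0 CPM in male peer 5 to 190 in female peer 2 and rose by 0.89 ± 0.12 on the log2 scale per 10 percentage points. Nptx1, a secreted synapse protein, had its lowest level in male peer 5 (2.09 CPM), its highest in male mate 2 (160.0 CPM), and rose by 0.88 ± 0.13; its edgeR adjusted p reached 0.116 in 1 alternative. Of listed astrocyte genes the nearest were Slc4a4, the sodium bicarbonate cotransporter (−0.24 ± 0.058, edgeR adjusted p = 0.147), the sterol enzyme gene Hmgcs1 (0.26 ± 0.063, adjusted p = 0.147), Gabbr1 (−0.15, adjusted p = 0.284) and the GABA transporter Slc6a11 (−0.28 ± 0.084, adjusted p = 0.377).

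With the mixed clusters left out, 37 genes passed against the Slc17a7 share: 31 rose (0.392% of 7916 genes tested) and 6 fell (0.0758%). Of the 31, 28 had a higher mean in the other kept nuclei than in astrocytes, among them Cck (log2 0.94), Nptx1 (1.03), Snap25 (0.55), Stmn1 (0.52), Sncb (0.67) and Gng3 (0.62), genes of neuronal vesicles, cytoskeleton and signalling. The share of all tested genes with a higher mean in the other nuclei was not taken. The 6 that fell all had a higher mean in astrocytes, for Cadm4 by little (44.4 against 43.5 CPM). They included Clic4, an intracellular chloride channel (−0.39 ± 0.070, edgeR adjusted p = 0.0017; 149 CPM against 48.8 in the other nuclei), Notch3 (−0.40 ± 0.076; 107 against 5.17 CPM) and Slc4a4 (−0.27 ± 0.058, edgeR adjusted p = 0.0097). With male mate 2 also left out 27 rose and 5 fell, and 27 and 4 of these were among the 31 and 6. Slc17a7 is also an excluded gene of the selection, so this share can bear on which nuclei entered the sums. RNA of neighbouring nuclei in the droplets, this choice of nuclei and a change of the astrocytes themselves cannot be told apart here. None of them was tested.

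Astrocytes with a Gfap UMI were set against those without, within animals. Each nucleus was thinned to 800 UMIs, so that depth was equal, and 8481 astrocytes were deep enough. A Gfap UMI was found in 381 of these (4.49%), against 35 of 45423 spiny neurons (0.0771%), 0.350% of oligodendrocytes, 0.276% of precursors and 0.186% of microglia at the same depth. Over all nuclei of each kind, those too shallow to be thinned included, the median depth was 770 UMIs in astrocytes and 2241.5 in spiny neurons. In 16 animals with at least 10 nuclei on each side, 265 nuclei with Gfap were compared with 4017 without, with the animal as a block, and 866 genes were tested. Of these 48 were higher (5.54%) and 45 lower (5.2%) in the Gfap-detected nuclei, by edgeR with Benjamini-Hochberg adjustment. Without the mixed clusters 30 (4.08%) were higher and 21 (2.86%) lower of 735 tested in 14 animals.

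Of the 48 higher genes, Plec, which links intermediate filaments to the membrane, was at 496 CPM in Gfap-detected and 202 in undetected nuclei (log2 1.30 ± 0.20, higher in 13 of 16 animals). Vim, a partner filament of Gfap, was at 405 against 203 (0.97 ± 0.21, 13 of 16), and Cd9, a membrane tetraspanin, at 646 against 322 (0.97 ± 0.16, 15 of 16). Aqp4 was at 2062 ± 730 against 1136 ± 273 CPM (0.87 ± 0.10, 14 of 16; 0.96 without the mixed clusters), and Mlc1, a membrane protein of endfeet, at 1175 against 823 (0.52, 14 of 16). Apoe was higher in 16 of 16 animals (13858 against 10430 CPM, log2 0.43), as was the protease inhibitor Cst3 (6949 against 5260, 0.42). Agt was higher in 14 of 16 (3892 against 2932, 0.43). The call was lost for Apoe, Vim, Id4 and Actb at 500 UMIs per nucleus, and for Apoe (0.12) and Agt (0.10) without thinning. Vim was not tested without the mixed clusters. With no filter on low counts the median of all genes was −0.66, and 8 of the 12 higher genes named by the lowest p turned sign, Apoe, Agt, Cst3 and Mlc1 among them; relative to that median they stayed higher.

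Of the 11 tested genes of lipid and cholesterol handling 2 were higher and 2 lower, beside 5.54% higher and 5.2% lower of all 866 genes tested. Among the lower genes, Acsbg1, an acyl-CoA synthetase, was at 171 CPM in Gfap-detected and 341 in undetected nuclei (log2 −0.98 ± 0.24, higher in 1 of 16 animals). Cyp46a1, which turns over brain cholesterol, was at 2109 against 3252 (−0.61, 0 of 16), and Hes5 at 258 against 489 (−0.93, 2 of 16). Bmp15 was at 132 against 363 CPM (−1.31 ± 0.25, 0 of 16) and Gramd3 at 623 against 1017 (−0.70, 0 of 16). Htra1 (3399 against 4300, −0.34) was also lower. Astrocyte markers outside the selection moved both ways, with 6 higher and 5 lower of 19 tested (median −0.01, against −0.03 over all genes).

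The share of astrocytes with a Gfap UMI was 4.62 ± 2.66% in mates and 4.91 ± 3.05% in peers, a difference of −0.33 points (two-sided permutation test, n = 40, p = 0.720, adjusted p = 0.976 over 6 tests). For females against males the difference was −0.22 points (permutation p = 0.816), and for the interaction −1.58 (permutation p = 0.385). None passed.

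Agt was used in the same way. At 800 UMIs it was detected in 6517 of 8481 astrocytes (76.8%), against 0.766% of spiny neurons, 4.61% of oligodendrocytes, 2.24% of precursors and 1.67% of microglia. In 39 animals, male mate 2 not among them, 6512 nuclei with Agt were compared with 1946 without. Of 1258 genes tested 297 (23.6%) were higher and 235 (18.7%) lower. Without the mixed clusters the counts were 38 (3.84%) and 7 (0.707%) of 990 in 35 animals, so most calls did not hold without them. Scaled to library totals in place of TMM factors, 171 genes were higher and 348 lower, so the balance of directions depends on the scaling.

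Apoe was at 11853 ± 3493 CPM in Agt-detected and 6880 ± 2623 in undetected nuclei, higher in 39 of 39 animals (log2 0.74 ± 0.051; 0.42 ± 0.031 and 35 of 35 animals without the mixed clusters). Aqp4 was at 1241 against 743 CPM, higher in 38 of 39 (0.62, and 0.28 without those clusters). Clu (0.56, and 0.33), Sparcl1 (0.56, and 0.28), Ptgds (0.57, and 0.26), a prostaglandin synthase, and Atp1b2 (0.53, and 0.18) were also higher. Astrocyte markers outside the selection were higher in 18 of 18 tested, and in 8 of 18 without the mixed clusters, where the median fell from 0.46 to 0.12 (0.01 and −0.02 over all genes). In glutamate uptake 5 of 5 genes were higher with all nuclei and 0 without those clusters, and in ion transport 9 of 9 and 3. Over all genes tested 23.6% were higher with all nuclei and 3.84% without those clusters.

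Among the genes lower in Agt-detected nuclei, the glutamate receptor gene Grin1 (−1.18), the GABA synthesis gene Gad2 (−1.09) and the opioid peptide gene Penk (−1.03) had differences below −1. Of neuron markers 5 of 5 tested were lower, and of spiny neuron markers 4 of 4, beside 18.7% of all genes tested. Without the mixed clusters Snap25 went from −0.83 to −0.18 (edgeR adjusted p = 0.404), App from −0.89 to −0.24 (adjusted p = 0.0714) and the mitochondrial CYTB from −0.71 to −0.08 (adjusted p = 0.651), and none of these passed.

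**Figure D5:**
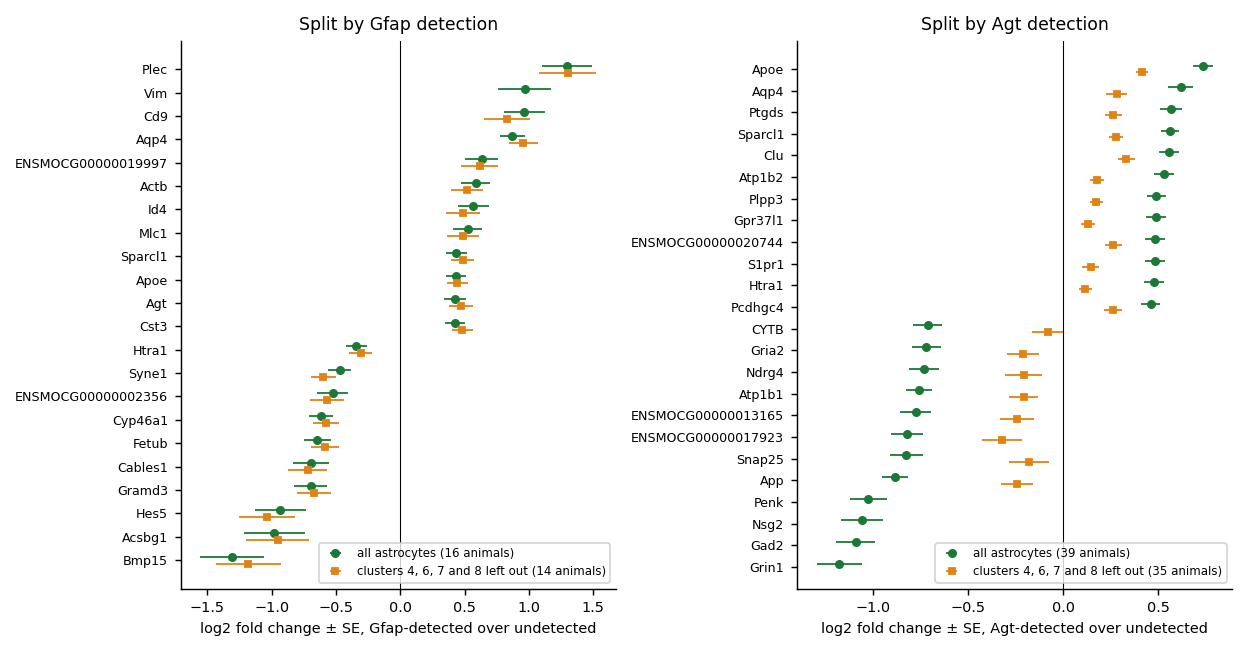
Log2 fold change ± SE of named genes in Gfap-detected over undetected (first panel) and Agt-detected over undetected astrocytes (second panel), with all astrocytes and with clusters 4, 6, 7 and 8 left out. Leaving them out moved Aqp4 from 0.87 to 0.96 in the Gfap panel and brought Apoe from 0.74 to 0.42 in the Agt panel.

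The Agt-detected share was 70.5 ± 11.8% of astrocytes in female mates, 79.0 ± 7.99% in female peers, 67.5 ± 20.2% in male mates and 76.3 ± 10.6% in male peers, and single animals ran from 21.7 to 93.4% with a median of 76.98%. The groups overlapped. Mates averaged 69.0 ± 16.2% and peers 77.5 ± 9.39%, a difference of −8.68 points (two-sided permutation test, p = 0.0471, adjusted p = 0.282 over 6 tests), which did not pass after adjustment. It was −6.40 points without male mate 2 (permutation p = 0.0885, adjusted p = 0.531) and −7.16 without the mixed clusters (permutation p = 0.0339, adjusted p = 0.203). The value without the mixed clusters also left out male mate 2, which had 5 such nuclei, below the limit of 20. Females and males differed by 2.84 points (permutation p = 0.501), and the interaction was 0.27 points (permutation p = 0.976). Without male mate 2 these were 0.55 points (permutation p = 0.877) and −4.31 (permutation p = 0.553). The sign of the difference between females and males turned with the depth of thinning. It was also negative without doublets and without the mixed clusters, settings that left out male mate 2 as well.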

How the data were processed

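Nuclear RNA of the accumbens of 40 voles was measured in 1 library per animal. The authors deposited raw UMI counts per gene and barcode, made with Cell Ranger 3.1.0 per the submitters' processing notes; the genome build, annotation and settings are not given in the sources used here. All libraries list 19130 genes. Of 344 listed genes in 28 lists 315 were used. With the selection genes these made 326 symbols, of which 315 (96.6%) are in the RefSeq table of MicOch1.0.

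Barcodes were selected as the report states. Doublets were scored per library with scanpy's scrublet (scanpy 1.11.5, Python 3.11.15). The highest scores were called, up to a number set in advance from the library's count of deposited barcodes. Called nuclei were kept, apart from an alternative without them. Astrocytes were clustered on 1000 variable genes, 20 principal components, 15 neighbours and a resolution of 0.5. UMIs were summed per animal with at least 20 astrocytes and tested with edgeR 4.0.16 in R 4.3.3 (quasi-likelihood, TMM, filterByExpr, 1 mean per group, Benjamini-Hochberg, adjusted p under 0.05). DESeq2 1.42.0 was an alternative. Shares were tested by permutation with 100000 resamples. The splits used nuclei thinned to 800 UMIs and at least 10 nuclei on each side, with the animal as a block. The 5 selection genes were left out of their counts of calls.

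The pairing fit was tested on simulated counts for 8395 genes with 200 changed, where 8 unchanged genes were called. Named genes were, for each direction of a comparison, at most 12 of those called, taken by p, or 5 in all where none was called, up to 4 called members of a list or 2 with the lowest p, 8 leading genes of a cluster, and the 15 listed genes of highest level. The astrocyte definition, lists and tests were chosen with earlier results of these data known. The alternatives without mixed clusters, with or without male mate 2, and with library totals in the splits, were chosen after seeing the data. Results of a few genes are not reported here. The p-values measure the spread between animals.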

Additional observations from a re-analysis of the deposited data

Results flagged for a closer look

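The check took the female peers (n = 8) and male peers (n = 10), the groups small enough for it. In 15 of 124 group values the highest or lowest animal had a gap to its neighbour that was large for the range of the group. For independent values of a normal distribution about 1 in 20, or 6.2, would be flagged. CPM and shares can be skewed, and all 15 flagged values were the highest of their group. The count is therefore no measure of an excess. Among cluster shares, cluster 4 held 10.7% of the astrocytes of male peer 2 (other male peers 0.447 to 4.28%), and cluster 5 held 17.6% of male peer 5 (others 0.699 to 2.44%) and 3.30% of female peer 3 (other female peers 0.508 to 1.68%).

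Among astrocyte genes, Aqp4 was at 1462 CPM in male peer 7 (others 775 to 1131), Gjb6 at 1089.6 CPM in male peer 9 (others 253 to 614) and Slc4a4 at 1187 CPM in male peer 5 (others 378 to 769). Slc7a10, a gene of the selection, was at 2525 CPM in male peer 3 (others 1425 to 1993), and Gpr37l1 at 4588 CPM in female peer 6 (others 2839 to 3520). Of neuronal genes, Cck was at 159.7 CPM in male peer 8 (others 0 to 71.2) and Nptx1 at 64.6 CPM in male peer 9 (others 2.09 to 34.2).

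Of the remaining genes, Arhgap26 was at 24.9 CPM in male peer 2 (others 2.63 to 12.7) and ENSMOCG00000012032 at 124 CPM in the same animal (others 65.0 to 92.4). In female peer 1, Ddx3x was at 279.9 CPM (others 99.7 to 176) and ENSMOCG00000010003 at 60.5 CPM (others 0 to 28.4). Cryzl2 was at 90.4 CPM in female peer 7 (others 22.7 to 53.0).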

How the results depend on the processing

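No paired analysis was run, since the replicate numbers follow accession order and the labels do not name partners. Library numbers taken in successive twos from the first share a pairing type; the labels do not say what these mark, and they were not used as pairs. The counts of genes for pairing, within each sex and for the interaction stayed at 0 under every other setting, and that for sex at 2. Leaving out each animal in turn gave 0 to 1 for pairing (1 without female peer 4), 2 to 3 for sex, 0 to 0 for the interaction, for females and for males, and 2 to 7 for the Slc17a7 share (7 without male mate 2). The Slc17a7 count was 4 with a 5-gene sum of at least 5, 11 with DESeq2, 1 with DRD1A and DRD2 allowed, 4 with RLE factors, 5 with median UMIs as a covariate, 37 without the mixed clusters, 32 without these and male mate 2, and 5 with no filter. Leaving out each animal, the astrocyte share difference ran from −0.643 to 0.116 for pairing (positive without male mate 2 alone), 0.383 to 1.14 for sex and −1.42 to −0.0721 for the interaction. Without male mate 2 the Gfap-detected differences were −0.290, −0.257 and −1.66 points, and the Agt-detected ones −6.40, 0.554 and −4.31. The sign of the Gfap-detected female minus male difference turned at 500 UMIs (1.18) and unthinned (1.28). That of Agt turned unthinned (−0.900) and at 500 UMIs (−2.68). Without doublets it was −0.225 and without the mixed clusters −1.38, and the Agt interaction was −1.50 and −2.34. Male mate 2 was in neither of these settings, with 18 and 5 nuclei left where 20 were needed. Its loss and the filter cannot be told apart in these values, and the interaction was −4.31 without that animal alone. The Gfap split called 51 genes without the mixed clusters, 2503 with no filter, 183 at 500 UMIs and 821 unthinned; the Agt split 317 without doublets, 45, 2073 and 1095 for the mixed clusters, no filter and unthinned. Library totals gave 171 higher and 348 lower in the Agt split. Male mate 2 had 1 nucleus with Gfap and 5 with Agt at 800 UMIs, where 10 were needed. It was in neither main split, so the counts of 93 and 532 without it are the same fits. With no filter the median of all genes in the Gfap split was −0.66, and Actb (−0.16), Agt (−0.32), Apoe (−0.32), Cst3 (−0.33), ENSMOCG00000019997 (−0.0946), Id4 (−0.18), Mlc1 (−0.21) and Sparcl1 (−0.32) turned sign; the causes were not tested. Of 167 values of named Gfap-split genes 10 lost their call, and of 161 of the Agt split 8. Shallow nuclei limit what can be seen of receptors and other sparse genes.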
